A study of Mus musculus with 6 samples.

Results

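The 33 genes described here encode the machinery that brings a secretory protein into the endoplasmic reticulum, removes its signal peptide, attaches N-linked sugars and loads it for export. They were taken as a named list: 6 genes of the Sec61 translocon and its partners (Sec61a1, Sec61b, Sec61g, Sec62, Sec63, Tram1), 4 of the translocon-associated protein complex (Ssr1 to Ssr4), 5 of signal peptidase (Spcs1, Spcs2, Spcs3, Sec11a, Sec11c), 6 of the signal recognition particle and its receptor (Srp9, Srp14, Srp19, Srp68, Srp72, Srprb), 9 of oligosaccharyl transferase (Rpn1, Rpn2, Ddost, Dad1, Stt3a, Stt3b, Ostc, Tusc3, Krtcap2) and 3 cargo receptors of the p24 family (Tmed2, Tmed3, Tmed10). All 33 were found among the 21510 genes with at least 1 unique molecular identifier (UMI), and together they held 1.53% of the UMIs that did not come from hormone genes.

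The data are single-cell MARS-seq counts, a plate method that counts UMIs at the 3′ end of transcripts, from islets of Langerhans of male Sox9-CreER; tdTomato mice. All mice, in both operations, received 8 mg tamoxifen over 2 weeks from the age of 10 weeks, which activates a Cre expressed where Sox9 is active, in duct and progenitor cells, and so marks that lineage with tdTomato. At 12 weeks they had a partial pancreatectomy (ppx) or a sham operation, and islets were isolated 4 weeks later. Each operation has 3 plates of 384 wells. The plates of replicate 1 in both operations were tomato-positive, sham replicate 2 was mixed, and the other 3 were tomato-negative. The series states 6 pancreata without saying which plate holds which, so the p-values measure the spread between plates, which may be in part technical.

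A protein bound for secretion is recognised by its signal peptide as it leaves the ribosome, carried by the signal recognition particle to its receptor on the endoplasmic reticulum and passed through the Sec61 channel. Signal peptidase removes the signal peptide, oligosaccharyl transferase adds sugar chains to asparagines of proteins that have such sites, and p24 proteins help to sort cargo into vesicles. In the pancreatic islet this route carries preproinsulin, preprosomatostatin and preproglucagon, and the beta cell in particular is known for its heavy load of newly made proinsulin.

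The plates held 1250861 to 1508513 UMIs and shared 0 well names. Wells with at least 500 UMIs and at most 20% mitochondrial UMIs were kept, 2115 of 2304. They were grouped by the hormone UMIs they held: 1000 insulin-only wells (Ins1 plus Ins2 at least 3% of UMIs), 538 somatostatin-only wells (Sst at least 0.7%), 153 glucagon-only wells (Gcg at least 2.3%), 180 joined wells high in insulin and Sst, 63 Ppy wells, 59 wells high in Sst and Gcg, 108 hormone-low wells and 14 wells of other hormone combinations, which were not used. Ppy wells had Ppy at 1% of UMIs or more and were high in none of insulin, Sst and Gcg. Ppy was used only to tell them from hormone-low wells, so that wells of the other groups, somatostatin-only among them, may also carry Ppy. The sham plates held 22, 177 and 196 insulin-only wells and the ppx plates 19, 294 and 292. Most somatostatin-only wells came from the tomato-positive plates, with 212 on sham replicate 1 and 224 on ppx replicate 1. Beta markers such as Ucn3, Mafa and G6pc2 summed to 8353 to 10950.0 CPM in insulin-only wells and 319 to 935 in somatostatin-only wells, and delta markers to 5186 to 7203 in somatostatin-only wells and 235 to 821 in insulin-only wells. Levels below are UMIs per 1000000 UMIs of non-hormone genes (CPM), summed over the wells of a group on a plate. A level is thus a share, so that more of a member and less of the other transcripts cannot be told apart, and levels of different genes are not compared.

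The sequence next to the start of transcription was taken for 4 of the genes that differed by insulin load or by operation in insulin-only wells, because cells raise many genes of the endoplasmic reticulum together through short promoter elements. These are the 250 bases before the transcription start in RefSeq (GRCm38.p6), written 5′ to 3′ along the gene's own strand, with capitals marking CCACG on either strand (read as CGTGG on the other).
Ssr4, chrX:73786773-73787022, plus strand: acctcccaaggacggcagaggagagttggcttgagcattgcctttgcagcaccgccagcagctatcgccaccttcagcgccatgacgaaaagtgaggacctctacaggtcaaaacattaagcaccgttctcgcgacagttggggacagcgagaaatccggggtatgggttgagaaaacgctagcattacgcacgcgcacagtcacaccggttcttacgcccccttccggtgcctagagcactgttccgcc
Tmed3, chr9:89705044-89705293, minus strand: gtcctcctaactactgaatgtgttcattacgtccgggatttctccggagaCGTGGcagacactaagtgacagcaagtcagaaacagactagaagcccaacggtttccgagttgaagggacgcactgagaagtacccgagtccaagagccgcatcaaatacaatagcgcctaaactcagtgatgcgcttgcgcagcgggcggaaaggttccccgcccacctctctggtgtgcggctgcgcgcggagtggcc
Srp9, chr1:182124487-182124736, plus strand: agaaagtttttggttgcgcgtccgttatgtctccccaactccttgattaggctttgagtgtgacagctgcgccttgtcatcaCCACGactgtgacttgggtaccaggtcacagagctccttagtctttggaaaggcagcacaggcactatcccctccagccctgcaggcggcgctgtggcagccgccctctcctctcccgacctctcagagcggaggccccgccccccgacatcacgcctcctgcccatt
Spcs1, chr14:31001667-31001916, minus strand: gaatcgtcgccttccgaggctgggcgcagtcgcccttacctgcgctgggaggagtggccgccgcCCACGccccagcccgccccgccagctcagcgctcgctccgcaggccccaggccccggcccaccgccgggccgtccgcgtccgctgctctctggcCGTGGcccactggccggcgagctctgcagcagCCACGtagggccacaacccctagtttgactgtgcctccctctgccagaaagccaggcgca
Spcs1 has 3 matches to CCACG in this window, Tmed3 and Srp9 have 1 each, and Ssr4 has 0. Among the 23 members with a promoter entry, 13 (56.5%) held CCACG and 11 (47.8%) held CCAAT, against 28.3% and 33.8% of all 32851 promoters of the same length. Each member was counted by 1 promoter, while the full set was not reduced to 1 promoter per gene or to genes detected here. The shares are thus of unlike sets. These 2 short motifs are parts of the longer endoplasmic reticulum stress elements, searched as CCAAT with CCACG 9 bases after it and as ATTGG with CCACG 1 base after it, which were found in 0 of the 23 members and in 0.113% and 0.0304% of all promoters. TGACGTGG, which also contains CCACG on its other strand, was found in 0 of the 23 and in 0.563% of all. Both strands were searched for each motif, and a match describes only these letters. In GENCODE on GRCm38, Ssr4 spans chrX:73787028-73790830 on the plus strand with no exon of another gene over its own, and Tmed3 spans chr9:89699206-89705068 on the minus strand, also with none. Srp9 lies at chr1:182124737-182132407 on the plus strand and shares exon sequence with Gm17968 on the other strand. Spcs1 lies at chr14:30999826-31001672 on the minus strand and shares exon sequence with Glt8d1 on the other strand. In all, 13 of the 33 members share exon sequence with another gene, and whether the counting used strand is not given in the sources used here.

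Transcripts of the secretory machinery made up the highest share of UMIs in insulin-only wells and the lowest in hormone-low wells. The summed level of the 33 members was 17500.0 ± 1996 CPM in insulin-only wells (mean ± SD, n = 6 plates), 14698 ± 1951 in joined wells (n = 6) and 12488 ± 439 in Ppy wells (n = 5). It was 10308 ± 477 in somatostatin-only wells, 10143 ± 425 in wells high in Sst and Gcg (n = 3), 10086 ± 571 in glucagon-only wells and 5924 ± 1289.9 in hormone-low wells. The hormone-low wells differ in make-up between plates: over the plates their summed markers ranged from 135 to 7122 CPM for endothelial cells, 1266 to 8616 for stromal cells, 270 to 16520 for macrophages, 0 to 21050 for duct and 0 to 166000 for acinar cells, with duct markers highest on the 2 tomato-positive plates and acinar markers on ppx replicate 3. The somatostatin-only, glucagon-only and Sst plus Gcg groups lay within each other's spread, and every plate of insulin-only wells was above every plate of these 3.

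**Figure D1:**
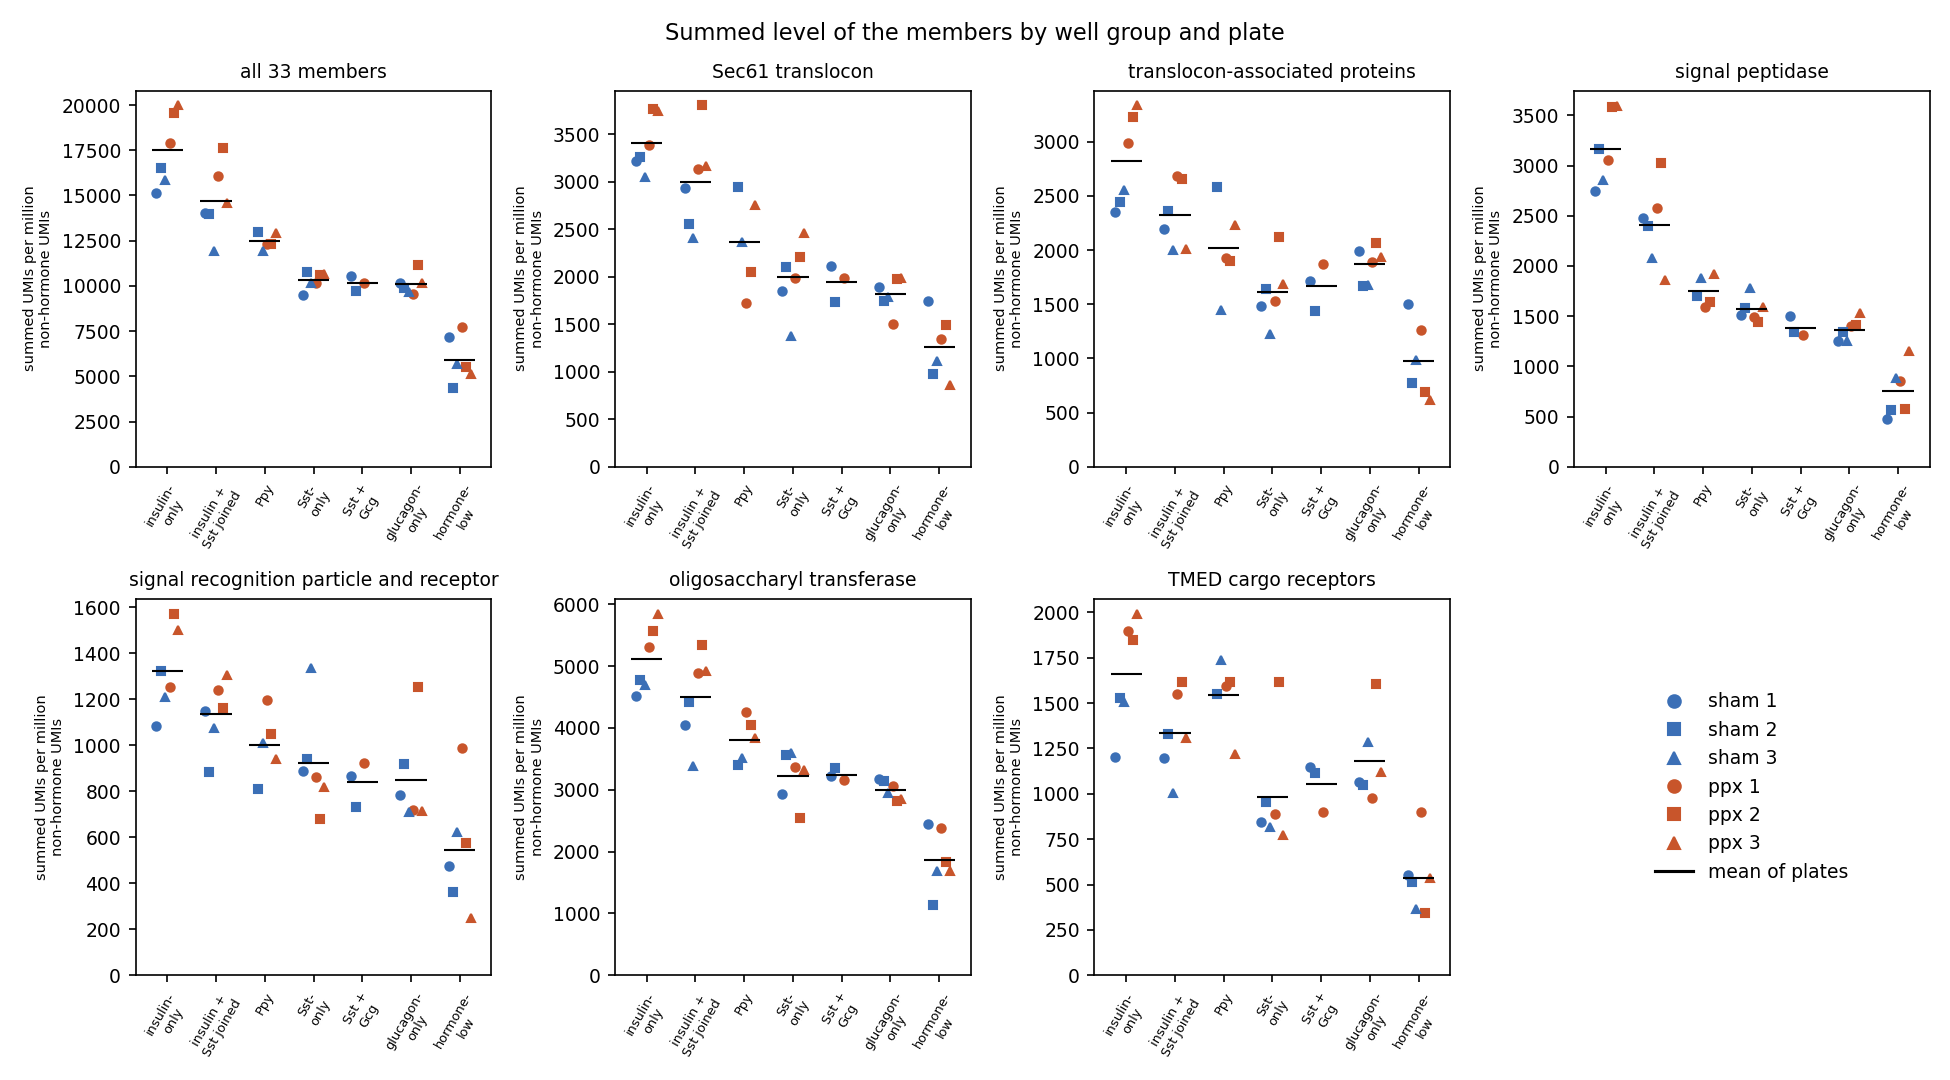
Summed level of the 33 members and of each of the 6 complexes (vertical axis, CPM of non-hormone UMIs) in the 7 well groups (horizontal axis). Each symbol is 1 plate, blue for sham and red for ppx, and the bar is the mean of the plates. For all members the insulin-only plates sit between 15136 and 20019, and the somatostatin-only plates between 9511 and 10773.

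By complex, the sums were highest in insulin-only wells for all 6. Signal peptidase genes summed to 3167 ± 357 CPM in insulin-only wells, 1568 ± 119 in somatostatin-only and 1365 ± 106 in glucagon-only wells, with no overlap of plates between insulin-only wells and either of the others. The translocon-associated proteins summed to 2818 ± 421, 1616 ± 297 and 1873 ± 164. The signal recognition particle and its receptor summed to 1323 ± 184, 921 ± 222 and 850.3 ± 214, and 1 somatostatin-only plate, that of sham replicate 3, lay at 1337, above several insulin-only plates. The glucagon-only plate of ppx replicate 2, at 1255, also lay within the insulin-only range, which began at 1083. The p24 receptors of Ppy wells, at 1544 ± 193, were within the spread of the insulin-only wells at 1661 ± 301.

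Each plate holds several well groups, so the groups were compared within plates with edgeR's quasi-likelihood test, and a gene counted as higher or lower where its p, adjusted over all genes tested by Benjamini-Hochberg, was under 0.05. Of the 33 members, 19 were higher in insulin-only than in somatostatin-only wells and 0 were lower, where 12.4% of all genes tested were higher, 8.69% lower and 21.1% differed in either direction. The median log2 difference was 0.70 over the members and 0.06 over all genes. Against glucagon-only wells 23 of the 32 members tested were higher and 0 were lower (24.0% of all genes higher, 21.7% lower, 45.7% in either direction), with a median of 0.61 against 0.04. Sec61g had too few UMIs for that test. The difference was positive on each of the 6 plates for 17 members against somatostatin-only wells (12.5% of all genes) and for 20 against glucagon-only wells (20.9%). Both comparisons share the insulin-only wells and are not independent. The wells also differ in depth and RNA quality: the median well of a plate held 3848 to 5217 UMIs in insulin-only, 1505 to 2053 in somatostatin-only and 2867 to 8997 in glucagon-only wells, with 6.92% to 10.8%, 10.9% to 13.4% and 5.20% to 6.90% mitochondrial UMIs. The part of depth in the differences was not tested. With wells under 1000 UMIs left out, which leaves a gap in depth between the groups, the counts were 21 and 23. Without the tomato-positive plates, which hold few insulin-only wells, they were 16 and 22.

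Signal peptidase, which cuts the signal peptide from the incoming chain, had 4 of its 5 genes higher in both comparisons. Sec11c, 1 of its 2 alternative catalytic subunits, ranged over the plates from 499.8 to 990.4 (median 764) CPM in insulin-only wells, from 91.1 to 371 (median 312) in somatostatin-only and from 162 to 408 (median 229) in glucagon-only wells. Its lowest insulin-only plate was above the highest plate of both others, and it was higher by 1.33 ± 0.17 (log2 fold change ± SE, edgeR adjusted p = 1.8e-13) and by 1.54 ± 0.15 (adjusted p = 1.2e-14). Sec11a, the other catalytic subunit, ranged from 165 to 233 (median 215), 0 to 334 (median 120.2) and 51.0 to 242 (median 181) in the same order of groups, overlapping throughout, with differences of 0.54 ± 0.27 and 0.12 ± 0.21 that did not pass (adjusted p = 0.145 and 0.68). Spcs3, a subunit needed for catalysis, ranged from 509 to 705 (median 647), 149 to 410.2 (median 284) and 204 to 293 (median 223) and was higher by 1.07 ± 0.17 and 1.26 ± 0.16. Spcs1, an accessory subunit, ranged from 595 to 879 (median 728), 340.0 to 420.5 (median 390.1) and 176 to 408 (median 349.6), again without overlap, and was higher by 0.86 ± 0.16 and 1.01 ± 0.15. Spcs2, also accessory, ranged from 479 to 1004 (median 904), 396 to 519.8 (median 467) and 326 to 459 (median 383) and was higher by 0.83 ± 0.15 and 1.16 ± 0.13; its somatostatin-only plates overlapped the insulin-only ones. The largest adjusted p among these 3 Spcs genes was 1.4e-06.

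The Sec61 channel and its partners had 4 of 6 genes higher against somatostatin-only and 5 of 5 tested genes higher against glucagon-only wells. Sec61a1, the pore-forming subunit, ranged from 418 to 566 (median 497) CPM in insulin-only, 137 to 340.0 (median 198) in somatostatin-only and 130.3 to 369.9 (median 296) in glucagon-only wells. Neither of the other groups reached the insulin-only range, and Sec61a1 was higher by 1.23 ± 0.20 (edgeR adjusted p = 8.3e-09) and 0.63 ± 0.16 (0.000513). Sec61b, a small channel subunit, ranged from 789 to 1029 (median 956), 297 to 820.3 (median 482) and 424 to 612 (median 558) and was higher by 0.89 ± 0.15 and 0.61 ± 0.12. Tram1, a membrane protein next to the channel that helps some chains to enter, ranged from 988 to 1256 (median 1108), 371 to 1020.1 (median 650.2) and 418 to 561 (median 503) and was higher by 0.77 ± 0.14 and 1.10 ± 0.12. Sec63, which recruits the chaperone BiP to the channel, ranged from 165 to 307 (median 282), 0 to 198 (median 145) and 88.1 to 228 (median 141), overlapping in both cases, and was higher by 0.82 ± 0.24 and 0.86 ± 0.21. Sec62, its partner in translocation after translation, ranged from 512 to 559 (median 541), 407 to 592 (median 422) and 163 to 440.3 (median 303). It was higher against glucagon-only wells, by 0.66 ± 0.15 (adjusted p = 0.000144), and its difference of 0.29 ± 0.17 against somatostatin-only wells did not pass (adjusted p = 0.223). Sec61g, a further small channel subunit, had few UMIs, 11.9 to 93.5 (median 78.3) CPM in insulin-only and 0 to 91.1 (median 39.5) in somatostatin-only wells, and a difference of 0.26 ± 0.43.

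The translocon-associated protein complex sits beside the channel and assists chains that enter it with difficulty, and 3 of its 4 genes were higher in each comparison. Ssr4 ranged from 940.0 to 1429 (median 1209) CPM in insulin-only, 297 to 524 (median 494) in somatostatin-only and 666 to 945 (median 859) in glucagon-only wells. The somatostatin-only plates lay wholly below the insulin-only ones, at a difference of 1.28 ± 0.15 (edgeR adjusted p = 5.4e-16), while glucagon-only plates overlapped them, at 0.37 ± 0.11 (0.00303). Ssr3 ranged from 476 to 779 (median 584), 149 to 680.1 (median 289.5) and 228 to 484 (median 325) and was higher by 0.90 ± 0.17 and 0.79 ± 0.14. Ssr1 ranged from 436 to 563 (median 504), 283 to 638 (median 368) and 102 to 358 (median 241) and was higher by 0.49 ± 0.18 and 0.76 ± 0.16. The first of these Ssr1 calls (adjusted p = 0.0274) was lost with DESeq2 (0.0834) and when either sham replicate 1, sham replicate 2 or ppx replicate 1 was left out, where the adjusted p lay between 0.0516 and 0.200. Ssr2 ranged from 440.3 to 611 (median 461), 366 to 595 (median 438) and 321 to 663 (median 421), overlapping throughout, and passed in neither comparison (0.15 ± 0.17 and 0.18 ± 0.14).

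Oligosaccharyl transferase had 6 of 9 genes higher in both comparisons. Rpn2, a structural subunit also called ribophorin II, ranged from 809 to 1185 (median 984) CPM in insulin-only, 425 to 643 (median 499.5) in somatostatin-only and 306 to 660.5 (median 456) in glucagon-only wells, with no overlap with either, and was higher by 0.82 ± 0.15 (edgeR adjusted p = 5.1e-07) and 1.04 ± 0.13 (5.8e-11). Rpn1, ribophorin I, ranged from 499.8 to 728 (median 607), 85.0 to 501 (median 306) and 132 to 357 (median 291) and was higher by 0.93 ± 0.17 and 1.01 ± 0.15. Ostc, which links the enzyme to the channel, ranged from 582 to 853 (median 659.7), 326 to 501 (median 416) and 153 to 523 (median 485) and was higher by 0.73 ± 0.16 and 0.47 ± 0.14. Ddost, a further structural subunit, ranged from 583 to 809 (median 636), 255 to 594 (median 455) and 231 to 462 (median 427) and was higher by 0.63 ± 0.16 and 0.55 ± 0.14. Krtcap2, a small subunit found with the Stt3a form of the enzyme, ranged from 514 to 759 (median 657), 319 to 680.1 (median 449) and 301 to 456 (median 394) and was higher by 0.58 ± 0.16 and 0.59 ± 0.14. Dad1, a small core subunit, ranged from 678 to 957 (median 851), 170.0 to 928 (median 587) and 352 to 902 (median 485) and was higher by 0.50 ± 0.15 and 0.51 ± 0.13, the first of which was lost with DESeq2 (adjusted p = 0.0707) and without ppx replicate 1 (0.0621). None of the 3 others passed in either comparison: the catalytic subunits Stt3a (0.38 ± 0.24 and 0.20 ± 0.20) and Stt3b (0.19 ± 0.26 and 0.45 ± 0.25), and Tusc3 (-0.03 ± 0.22 and 0.05 ± 0.19), an oxidoreductase subunit of the Stt3b form.

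Of the 3 p24 receptors, 2 were higher in each comparison. Tmed2 ranged from 335 to 479 (median 392) CPM in insulin-only, 149 to 319 (median 188) in somatostatin-only and 95.1 to 357 (median 195) in glucagon-only wells and was higher by 1.08 ± 0.21 and 1.03 ± 0.19 (edgeR adjusted p = 4.4e-06 and 3.1e-06). Tmed3 ranged from 452 to 976 (median 723) in insulin-only and 182 to 935 (median 304) in somatostatin-only wells, a difference of 0.96 ± 0.16 (adjusted p = 8.7e-08). In glucagon-only wells it ranged from 489 to 1101 (median 666), and the difference of -0.04 ± 0.12 (95% interval -0.28 to 0.20) did not pass (adjusted p = 0.816). Tmed10 was higher against glucagon-only wells (0.49 ± 0.16, adjusted p = 0.00784) and not past the threshold against somatostatin-only wells (0.43 ± 0.17, adjusted p = 0.0598).

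The signal recognition particle, the step before the channel, had 0 of 6 genes past the threshold against somatostatin-only wells, with 4 at an unadjusted p under 0.05 and differences from 0.03 for Srp19 to 0.70 for Srprb. Against glucagon-only wells 3 of 6 were higher. Srp72, which with Srp68 forms the core of the particle, ranged from 231 to 369.7 (median 305) in insulin-only and 116 to 293 (median 189) in glucagon-only wells, a difference of 0.61 ± 0.19 (edgeR adjusted p = 0.00587). Srp68 differed by 0.71 ± 0.26 (0.0172), which fell to 0.33 (0.359) without sham replicate 3. Srprb, the membrane subunit of the receptor, differed by 0.75 ± 0.28 (0.0228), a call lost without sham replicate 1 (0.0737) or ppx replicate 2 (0.0884). Neither passed with DESeq2 (0.0955 for Srp68 and 0.0570 for Srprb). Srp9, Srp14 and Srp19, small proteins that bind the RNA of the particle, differed by 0.54 ± 0.24, 0.31 ± 0.18 and 0.27 ± 0.28 and did not pass.

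**Figure D2:**
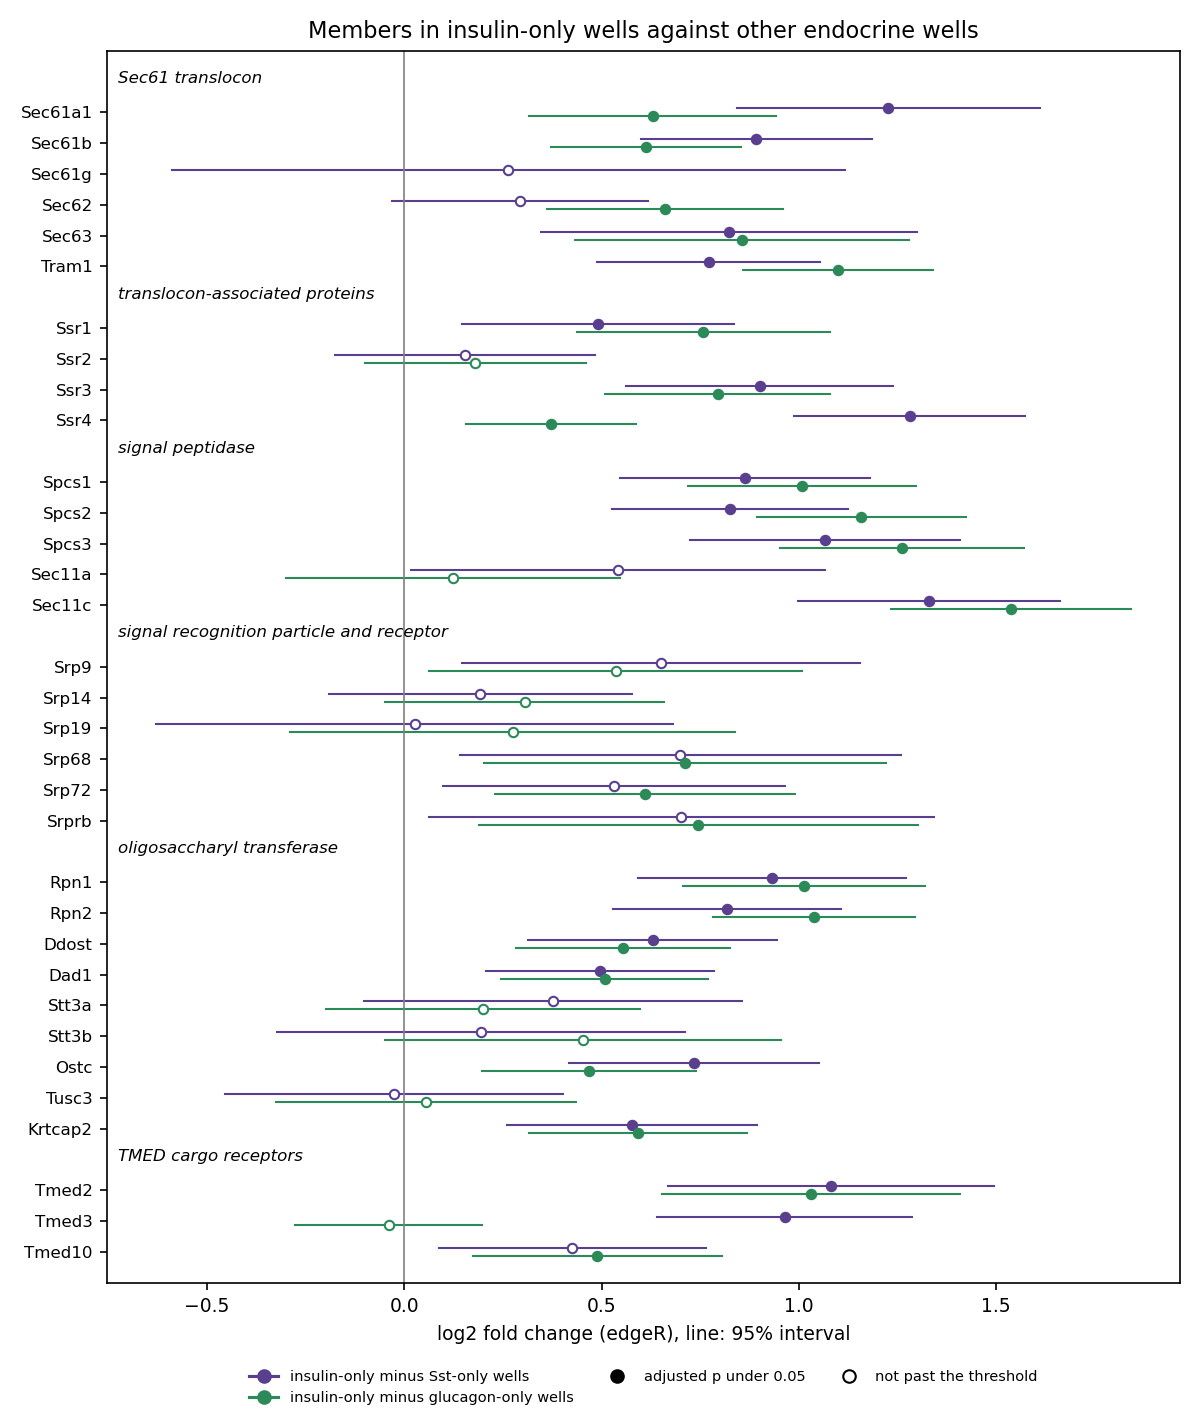
Log2 fold change of each member (rows, grouped by complex) in insulin-only wells against somatostatin-only and glucagon-only wells, with 95% intervals from edgeR; filled points passed an adjusted p of 0.05. Of the members tested, 32 of 33 lie right of 0 against somatostatin-only wells and 31 of 32 against glucagon-only wells.

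Other genes of the secretory route were counted by lists. Over all genes tested, 12.4% were higher and 8.69% lower against somatostatin-only wells, and 24.0% and 21.7% against glucagon-only wells. Of the chaperones and disulfide isomerases that fold the chain in the lumen, 16 of 20 tested were higher in insulin-only than in somatostatin-only wells, led by Ero1lb (4.49), Sdf2l1 (2.71) and Dnajb11 (1.89), and 16 of 18 against glucagon-only wells. Of the COPII, COPI and cargo transport genes 14 of 27 were higher, led by Sar1b (1.34) and Lman1 (1.32), and 16 of 25 against glucagon-only wells. The genes of N-glycan precursors and trimming had 2 of 12 higher (Gfpt1 0.86, Mlec 0.57) and 1 lower (Alg2 -0.79) against somatostatin-only wells, and 4 of 9 higher against glucagon-only wells. Membrane insertion genes had 1 of 14 higher (Tmem147 1.44) and, against glucagon-only wells, 3 of 6 higher and 1 lower (Emc10 -0.78). Other translocation genes had 4 of 9 higher and 1 lower, and 5 of 8 higher and 1 lower (Naca -1.01). They include Srpr, the partner of Srprb in the receptor, which was higher by 1.51 and 1.23. Genes of the unfolded protein response had 7 of 15 and 8 of 11 higher.

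Joined wells, which hold insulin and Sst together and are the subject of the series, had 1 member that differed from insulin-only wells. Sec11c ranged from 251 to 647 (median 475) CPM in joined and from 499.8 to 990.4 (median 764) in insulin-only wells, and it fell by 0.59 ± 0.14 on the log2 scale (edgeR adjusted p = 0.00993) and was lower on each of the 6 plates, though the ranges overlap between plates. The call was lost without ppx replicate 3 (adjusted p = 0.0570). Among all genes 2.14% differed, and 1.04% were lower. Of the members 30 of 33 had a negative difference with a median of -0.20, against -0.04 over all genes, and 6 (Ddost, Sec11c, Sec61b, Spcs1, Spcs3 and Ssr4) were lower on every plate (4.20% of all genes). Ssr4 differed by -0.39 ± 0.12 (adjusted p = 0.0687), and the 31 others lay between -0.49 and 0.09. In the chaperone list Ero1lb (-0.63) and Hspa5 (-0.42), which encodes BiP, were lower, and 0 genes of the other lists passed. Joined wells contain delta transcripts by their definition, and the lower member level of somatostatin-only wells is given above; its part in the result was not tested. Over the plates, beta markers summed to 4305 to 6869 CPM in joined and 8353 to 10950.0 in insulin-only wells, and delta markers to 1960.0 to 3276 and 235 to 821. The sham plates held 58, 26 and 6 joined wells and the ppx plates 78, 6 and 6, replicates 1 to 3 in turn. Their median Sst share was 1.85%, 4.30% and 4.35% on the sham and 1.84%, 7.29% and 4.42% on the ppx plates. Somatostatin-only wells of replicate 1 had 7.70% on the sham and 7.77% on the ppx plate. No doublets were removed, so 1 cell and several cells in a joined well cannot be told apart. The median well of a plate held 4552.5 to 6807 UMIs in joined and 3848 to 5217 in insulin-only wells. The part of depth was not tested.

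The next question was whether the members follow the amount of hormone in a cell. Within each plate, insulin-only wells were ranked by the share of UMIs from insulin, and the top tercile was compared with the bottom tercile, with hormone UMIs left out of the totals. A tercile held 7, 59 and 65 wells on sham replicates 1 to 3 and 6, 98 and 97 on ppx replicates 1 to 3. In insulin-only wells 4 of 33 members were higher in the top tercile and 0 were lower, where 1.17% of all genes differed, 0.542% were higher and 0.623% lower. The median difference was 0.20 over the members, with 30 of 33 positive, and -0.01 over all genes. The summed level was higher in the top than in the bottom tercile on each of the 6 plates, for example 18456 against 12790.0 CPM on sham replicate 3 and 20684 against 18591 on ppx replicate 3.

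Sec11c ranged from 447 to 845 (median 642) CPM in the bottom and 663 to 1241 (median 919) in the top tercile, and was higher in the top tercile on 6 of 6 plates, by 0.49 ± 0.11 (edgeR adjusted p = 0.00233). Spcs1, also of signal peptidase, ranged from 336 to 845 (median 622) and 787 to 1078 (median 841), higher on 5 of 6 plates, by 0.41 ± 0.11 (adjusted p = 0.0273). Ssr4 of the translocon-associated complex ranged from 720.5 to 1219 (median 1099) and 912 to 1567 (median 1357), higher on 5 of 6 plates, by 0.39 ± 0.10 (adjusted p = 0.0221). The cargo receptor Tmed3 ranged from 367 to 932 (median 685) and 663 to 1241 (median 949), higher on 6 of 6 plates, by 0.39 ± 0.11 (adjusted p = 0.0379). The ranges of bottom and top terciles overlap for these genes, because plates differ in level, and the comparison is within plates. Only Sec11c was also called by DESeq2. Without sham replicate 3 the count was 0, without sham replicate 2 or ppx replicate 2 it was 1, and without sham replicate 1 it was 2. Among the members that did not pass, Srprb differed by 0.63 ± 0.19 (adjusted p = 0.0721), while Sec61b (0.00 ± 0.11, 95% interval -0.21 to 0.21) and Stt3a (-0.20 ± 0.15) lay at or below 0. Of the 6 members higher in the top tercile on every plate (3.23% of all genes), Sec11c and Tmed3 are among the called and Rpn2, Spcs2, Ssr1 and Tram1 are not. In the lists of other genes, the secreted chaperone-like Manf (0.46) and the oxidase Ero1lb (0.37) were higher, 2 of 20 chaperones, and 0 genes of the other 5 lists passed. Over all genes tested, 0.542% were higher.

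Well quality moves with insulin load. Bottom-tercile wells had the higher median mitochondrial share on each plate, for example 10.9% against 7.25% on sham replicate 2 and 12.2% against 8.40% on ppx replicate 3. Beta markers were also lower there on each plate, for example 9526 against 11111 CPM on sham replicate 2. Median UMIs per well were higher in the top tercile on each sham plate and lower there on each ppx plate. For example, bottom and top terciles had 3900 and 5478 on sham replicate 3, and 4246.5 and 3324 on ppx replicate 2. The part of mitochondrial share, beta markers and depth in the result was not tested. Across single wells, Spearman's rho between the insulin share and the summed member level was 0.368 on sham replicate 2 (177 wells), 0.553 on sham replicate 3 (196), 0.230 on ppx replicate 2 (294) and 0.161 on ppx replicate 3 (292), a description in which the points share a library and depth. In quintiles of wells, the summed level of sham replicates 2 and 3 was 14431 and 12614 CPM at the lowest and 18403 and 17580.1 at the highest insulin shares. On ppx replicates 2 and 3 it was 18284 and 18850.4 at the lowest and 20774 and 20581 at the highest, so that even the quintile with the least insulin lay above most sham quintiles.

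**Figure D3:**
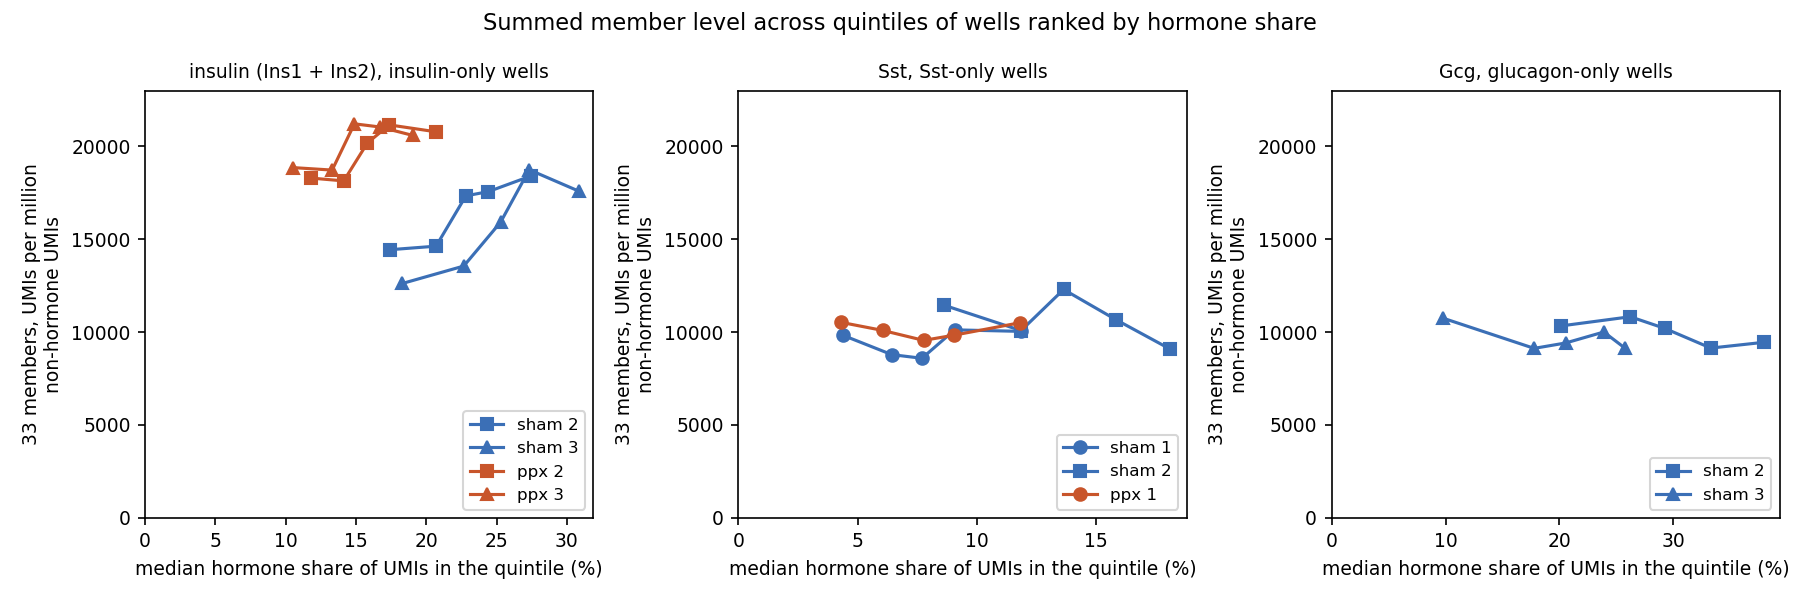
Summed level of the 33 members (vertical axis, CPM of non-hormone UMIs) in quintiles of wells ranked within a plate by hormone share (horizontal axis, median hormone share of the quintile in percent), for insulin-only, somatostatin-only and glucagon-only wells, 1 line per plate with enough wells. Insulin-only lines of sham replicates 2 and 3 end higher than they begin. The lines of ppx replicates 2 and 3 lie between 18135 and 21206, at lower insulin shares. Replicate 1 of both operations had too few insulin-only wells for a line. The median insulin share of these wells on ppx replicate 1 was 31.6%, the highest of the 6 plates.

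In somatostatin-only wells the same ranking by Sst gave 0 of 23 members tested past the threshold by edgeR, 0 at an unadjusted p under 0.05 and 0 by DESeq2 (1.10% of all genes differed). The other 10 members had too few UMIs, and 4 plates had enough wells. A tercile held 70, 21 and 6 wells on sham replicates 1 to 3 and 74 on ppx replicate 1. The differences lay between -0.44 and 0.28 with a median of -0.01. The members with the smallest p were Tmed3 at -0.44 ± 0.27 (95% interval -0.96 to 0.09), with 265 to 530.2 (median 460.1) CPM in the bottom and 112 to 333 (median 276) in the top tercile, Rpn1 at -0.41 ± 0.29 and Sec61a1 at -0.39 ± 0.34. Of the 23 members, 4 (Ddost, Sec61b, Tmed10 and Tusc3) were higher in the top tercile on every plate (8.30% of all genes), at 0.21 to 0.28 with no member past the threshold, and Ssr2 was lower on every plate (7.30% of all genes). In glucagon-only wells 0 of 11 members tested passed by edgeR, 1 was at an unadjusted p under 0.05 and 0 passed by DESeq2 (0 of 296 genes in all, 0%). That member was Rpn2, at -1.08 ± 0.29 (adjusted p = 0.345), with 499 to 1163 (median 558) in the bottom and 211 to 466 (median 375) in the top tercile over 4 plates, lower in the top tercile on each of them. In all, 3 of the 11 members (Rpn2, Spcs2 and Ssr2) were lower there on every plate (8.11% of all genes) and 0 were higher on every plate (11.1% of all genes). Ssr2 differed by -0.54 ± 0.29 and Ostc by 0.37 ± 0.32. The glucagon terciles were small, with 5, 16 and 19 wells on sham replicates 1 to 3 and 5 on ppx replicate 2. Whether the effect of load differs between insulin-only and the other wells was not tested, and standard errors there had a median of 0.25 and 0.29 against 0.12 in insulin-only wells.

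In insulin-only wells 3 members rose after ppx: Srp9 of the signal recognition particle, Ssr4 of the translocon-associated complex and the cargo receptor Tmed3. The summed level was 15136, 16513 and 15880.2 CPM on sham plates and 17894, 19559 and 20019 on ppx plates, replicates 1 to 3 in turn, so that every ppx plate was above every sham plate. All but Tusc3 of the 33 members had a positive difference, the median was 0.36 against -0.01 over all genes, and 23 had an unadjusted p under 0.05. With edgeR 3 were higher and 0 lower (0.343% of all genes higher, 0.135% lower, 0.478% in either direction). For 15 of 33 members every ppx plate lay above every sham plate (5.04% of all genes).

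Srp9, a small protein of the part of the particle that slows translation, was at 178, 197 and 167 CPM on sham plates and 314, 294 and 263 on ppx plates, without overlap. It rose by 0.70 ± 0.15 (log2 ± SE, edgeR adjusted p = 0.0196). Ssr4 was at 940.0, 953 and 1073 on sham plates and 1403, 1344 and 1429 on ppx plates, also without overlap, and rose by 0.53 ± 0.12 (adjusted p = 0.0218). Tmed3 was at 452, 704 and 679 and 743, 955 and 976, again without overlap, and rose by 0.57 ± 0.13 (adjusted p = 0.0323). The promoters of these 3 genes are printed above. With DESeq2 Ssr4 was the 1 member called. The count was 0 when sham replicate 2 or 3 or ppx replicate 2 or 3 was left out, 1 without sham replicate 1 and 6 without ppx replicate 1, and the 3 fold changes stayed between 0.49 and 0.80 in these fits. With the hormone thresholds doubled it was 0, and with hormone rows kept in the totals 1. Without both tomato-positive plates, which hold 22 and 19 insulin-only wells, 8 members were called, and with tomato-positive plates as a covariate 3.

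The other 30 members did not pass the test, and their log2 differences lay between -0.27 and 0.59. Signal peptidase genes summed to 2749, 3169 and 2856 on the sham and 3054, 3581 and 3592 on the ppx plates, and Sec11c, at 0.47 ± 0.13 (edgeR adjusted p = 0.0949), was followed by Spcs1 (0.37), Spcs3 (0.36), Sec11a (0.28) and Spcs2 (0.06), none past the threshold. The translocon-associated proteins summed to 2356, 2445 and 2559 and 2988, 3225 and 3338, with Ssr3 and Ssr2 both at 0.44 and Ssr1 at 0.26. The Sec61 group summed to 3225, 3267 and 3055 and 3384, 3771 and 3746, from Sec62 (0.09 ± 0.13) and Sec63 (0.11 ± 0.15) near 0 to Sec61a1 (0.41 ± 0.13) and the sparsely counted Sec61g (0.49 ± 0.23), with Sec61b at 0.35 and Tram1 at 0.29. Oligosaccharyl transferase summed to 4522, 4784 and 4695 and 5315, 5565 and 5851, with Dad1 and Krtcap2 at 0.43, Rpn1 and Ostc at 0.39, Stt3b at 0.37, Stt3a at 0.33, Rpn2 at 0.25 and Ddost at 0.24. Tusc3 was the exception, at 262, 281 and 240.1 on the sham and 248, 183 and 222 on the ppx plates and -0.27 ± 0.15 (adjusted p = 0.625). Of the signal recognition particle, Srprb was at 0.59 ± 0.18, Srp19 at 0.57 ± 0.20, Srp72 at 0.30, Srp14 at 0.16 and Srp68 at 0.01. Tmed10 and Tmed2 were at 0.35 and 0.30.

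**Figure D4:**
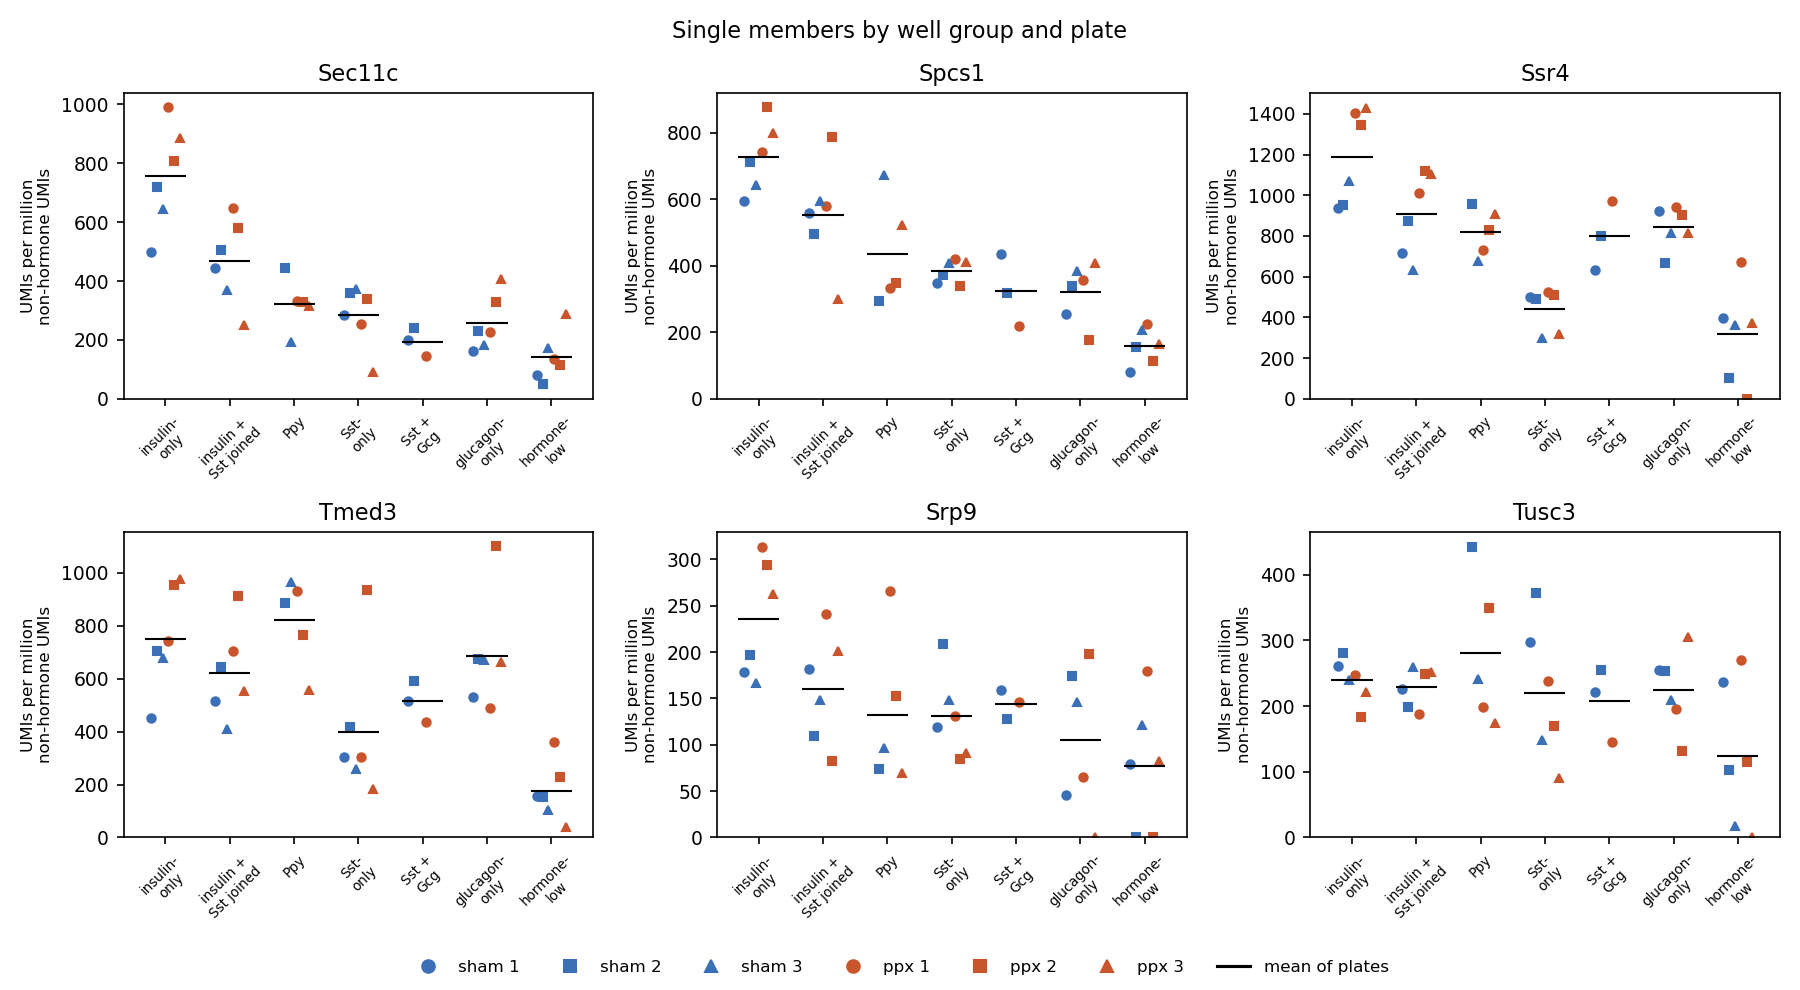
Levels of Sec11c, Spcs1, Ssr4, Tmed3, Srp9 and Tusc3 (vertical axes, CPM of non-hormone UMIs) in the 7 well groups (horizontal axes), each symbol 1 plate, blue for sham and red for ppx, with the mean of the plates as a bar. In insulin-only wells the ppx plates of Srp9, Ssr4 and Tmed3 all lie above their sham plates, and those of Tusc3 do not.

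Several other measures of the insulin-only wells differed between plates. Of those given next, only the summed alpha markers separated all sham from all ppx plates. The median insulin share of a well was 26.1%, 22.8% and 25.3% on sham plates and 31.6%, 15.8% and 14.9% on ppx plates, so that the tomato-negative ppx plates lay below every sham plate. The summed alpha markers were 2975, 3540.0 and 3478 CPM on the sham and 4523, 4171 and 3931 on the ppx plates, almost all from Ttr, while Irx2, which helps to define alpha cells, had 5 UMIs over the 3 sham plates and 2 over the 3 ppx plates. The 13 markers of acinar cells summed to 11.9, 0 and 24.3 CPM on the sham and 49.5, 3.21 and 83.1 on the ppx plates. Ctrb1 had the most UMIs of them, 6 over the sham and 19 over the ppx plates. Median mitochondrial shares were 9.17%, 8.24% and 8.32% on the sham and 6.92%, 9.52% and 10.8% on the ppx plates. The part of the insulin share, of Ttr and of acinar transcripts in the result was not tested. In the other lists, 9 of 21 chaperones and disulfide isomerases rose, with Sdf2l1 (1.52), Pdia4 (1.29) and Creld2 (1.07) the largest, as did the cargo receptor Lman1 (0.52, 1 of 32 transport genes) and Derl3 (2.27, 1 of 18 unfolded protein response genes), which acts in the removal of misfolded proteins. None of the 26 N-glycan, 21 membrane insertion and 12 other translocation genes tested passed. Over all genes tested, 0.343% were higher on the ppx plates.

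In somatostatin-only wells 0 of 26 members tested differed between the operations by edgeR, with 0 at an unadjusted p under 0.05 and 0 by DESeq2 (0.112% of all genes differed). The median difference was 0.08, and the ppx plates held 224, 9 and 11 of these wells. Tmed2, Ssr3 and Tusc3 had the smallest p. Tmed2 was at 158, 163 and 149 CPM on the sham and 213, 255 and 319 on the ppx plates, a difference of 0.56 ± 0.33 in which the plates did not overlap (5.15% of all genes were higher without overlap). Ssr3 was at 300.2, 279 and 149 and 359.6, 680.1 and 228 (0.42 ± 0.26), and Tusc3 at 297, 372 and 149 and 238, 170.0 and 91.1 (-0.43 ± 0.28). In glucagon-only wells 0 of 22 members tested differed by edgeR, with 0 at an unadjusted p under 0.05 and 0 by DESeq2 (0.610% of all genes differed), and the median was 0.06. Sec11c was at 162, 229.8 and 181 on the sham and 228, 330.2 and 408 on the ppx plates (0.65 ± 0.35), Rpn2 differed by 0.33 ± 0.26 and Tmed10 by -0.45 ± 0.36. The ppx plates held 6, 17 and 8 such wells, and median standard errors were 0.26 and 0.30 in these 2 groups against 0.13 in insulin-only wells.

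**Figure D5:**
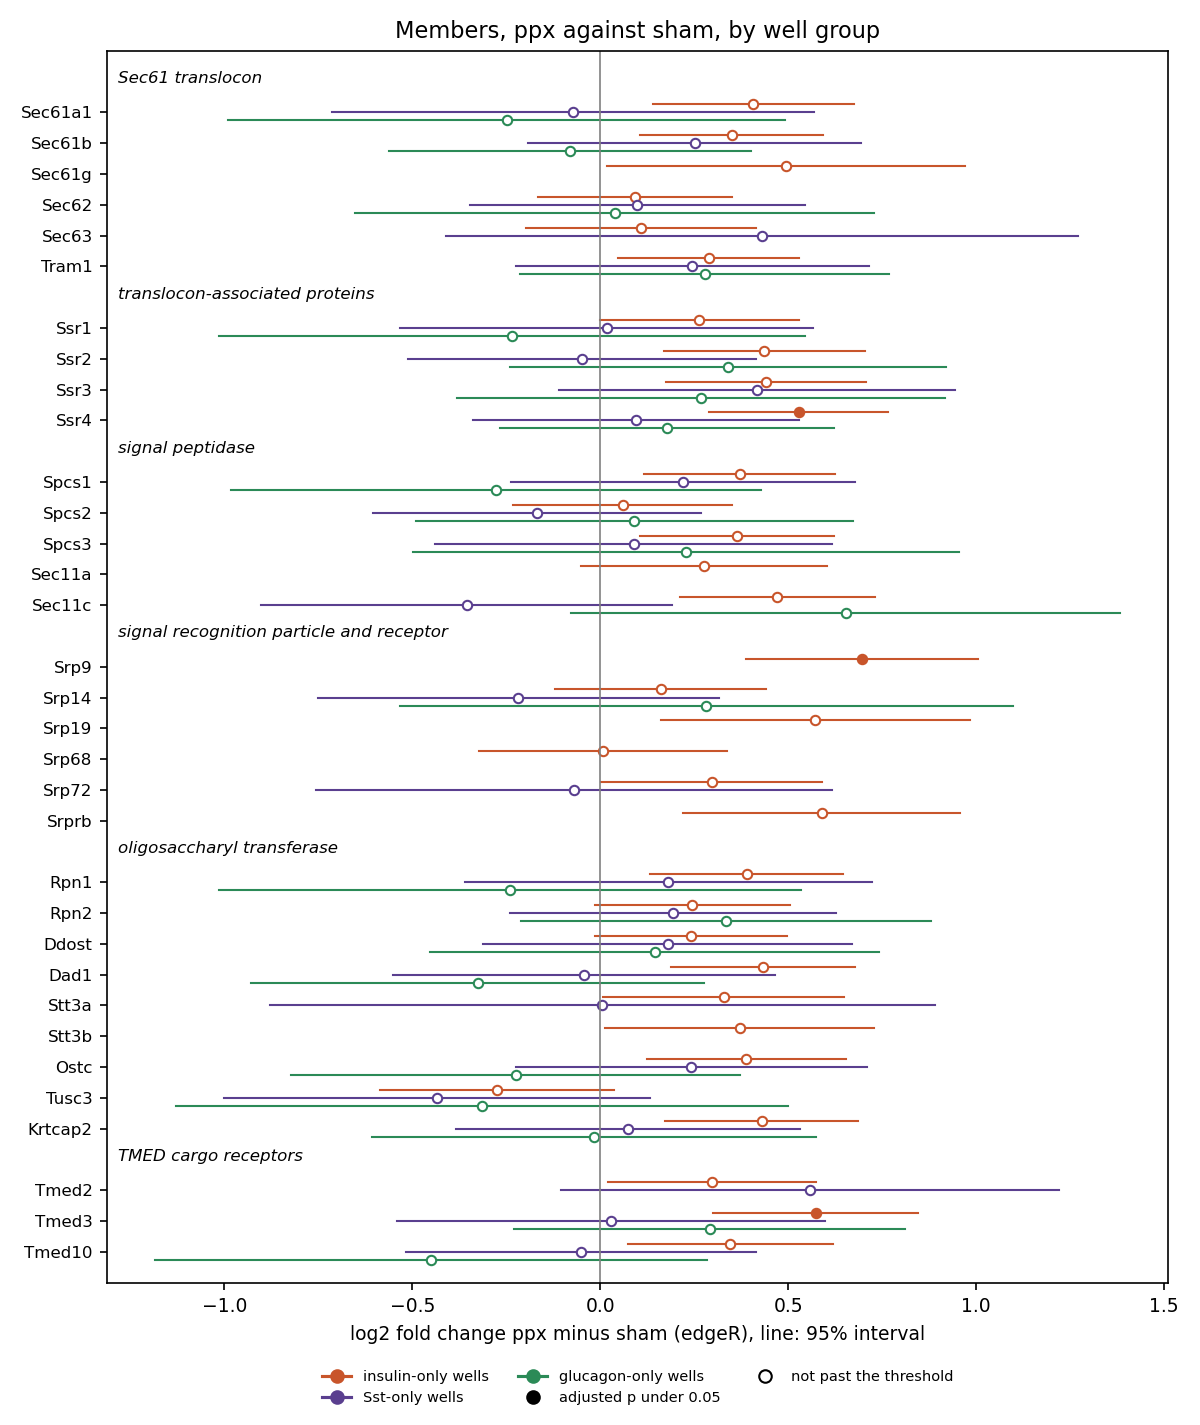
Log2 fold change of each member between ppx and sham plates (rows, grouped by complex) in insulin-only, somatostatin-only and glucagon-only wells, with 95% intervals from edgeR; filled points passed an adjusted p of 0.05, and a missing point had too few UMIs. The filled points are Ssr4, Srp9 and Tmed3 in insulin-only wells.

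Whether the operation's effect differed between well groups was tested with an interaction term, the plate being a block. Against somatostatin-only wells 0 of 33 members passed by edgeR, with 3 at an unadjusted p under 0.05 and 0 by DESeq2 (0% of all genes passed). The difference of effects, insulin-only minus somatostatin-only, was 1.17 ± 0.38 for Sec11c (95% interval 0.43 to 1.91, adjusted p = 1.00), 0.73 ± 0.33 for Dad1 and 1.19 ± 0.55 for Srp9. Sec11c in somatostatin-only wells was at 284, 360.3 and 371 CPM on the sham and 253, 340.0 and 91.1 on the ppx plates. Against glucagon-only wells 0 of 32 members passed by edgeR, with 6 at an unadjusted p under 0.05 and 0 by DESeq2 (0% of all genes passed). The smallest p belonged to Dad1 (0.76 ± 0.28, 95% interval 0.21 to 1.31, adjusted p = 0.598), Tmed10 (0.89 ± 0.35) and Stt3b (1.60 ± 0.64). A difference in response between the well groups was thus not detectable at this number of wells.

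The relation to insulin load was set against the operation in a further test, added after the data were seen. The difference between the top and bottom terciles of insulin-only wells was compared between ppx and sham plates. By edgeR 0 of 33 members passed, with 8 at an unadjusted p under 0.05 and 0 by DESeq2 (0.0614% of all genes passed). Of the members 28 of 33 had a smaller top-to-bottom difference on the ppx plates, with a median of -0.30 against -0.02 over all genes. Depth followed insulin load in opposite directions. Spearman's rho between insulin share and UMIs of a well was 0.131 and 0.313 on sham replicates 2 and 3. It was -0.213 and -0.161 on ppx replicates 2 and 3. Between depth and summed member level, rho was 0.212 and 0.340 on these sham plates and 0.133 and 0.193 on these ppx plates. The part of depth was not tested. Spcs1 differed by -0.71 ± 0.21 (adjusted p = 0.286): its bottom and top terciles were at 336 and 1078, 489 and 787, and 447 and 828 CPM on sham replicates 1, 2 and 3, and at 845 and 798, 799 and 917, and 756 and 855 on the ppx replicates. Ddost (-0.69 ± 0.21) and Tmed2 (-0.72 ± 0.25) had the next smallest p. The chaperone BiP, encoded by Hspa5, was the 1 gene of the other lists that passed, at -0.76 ± 0.16 (adjusted p = 0.0218).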

How the data were processed

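The submitters measured single islet cells by MARS-seq on 6 plates of 384 wells, 3 sham and 3 ppx. The authors deposited the UMI counts of each plate as a table of genes by wells, not normalized. HISAT 0.1.6 and the mm10 build are named in the submitters' processing notes, without their roles. Neither the counting tool nor the annotation or strand setting is given in the sources used here. Plates held 1250861 to 1508513 UMIs.

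Wells with under 500 UMIs (96) or over 20% mitochondrial UMIs (93) were left out, with no doublet removal, since joined wells are the subject of the series. Wells were grouped by hormone share, with thresholds of 3% (Ins1 plus Ins2), 0.7% (Sst), 2.3% (Gcg) and 1% (Ppy). Ppy was used only to tell Ppy wells from hormone-low wells. Counts were summed per plate and well group where at least 5 wells were present. The 8 hormone genes Ins1, Ins2, Iapp, Sst, Gcg, Ppy, Pyy and Ghrl were left out of the sums and totals. Sums were tested over all genes in R 4.3.3 with the quasi-likelihood test of edgeR 4.0.16, after filterByExpr and TMM scaling, and Benjamini-Hochberg adjustment at 0.05, with plate as a block within plates and no covariate between operations. DESeq2 1.42.0 was the second tool. Standard errors come from the F statistic. A member that filterByExpr dropped was not tested, and one may have passed through the group where it is high. On simulated counts for ppx against sham in insulin-only wells, 73.5% of 200 genes changed 2-fold were recovered among 7832 tested, and 9 unchanged genes were called. The changed genes were drawn from those with many UMIs, and every gene was given the same dispersion. The members' differences between operations in these wells were all under 2-fold, so the share recovered does not describe them.

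Per-plate values are named for members past the threshold (up to 20 by smallest p), or otherwise the 3 with the smallest p, and up to 3 called genes per other list; members beyond this are given to complete their complex. The members, lists, thresholds and tests were chosen with earlier results of these data known. Promoters are from RefSeq (GRCm38.p6, 23 of 33 members matched) and gene positions from GENCODE on GRCm38. Alternatives were the second tool, no low count filter, hormone rows kept, hormone thresholds halved or doubled, a minimum of 1000 UMIs, each plate left out, no tomato-positive plates, tomato-positive plates as a covariate, the replicate number as a block, and a split of wells by hormone share at the median in place of terciles. Leaving out mitochondrial rows and the test of load by operation were added after seeing the data.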

Additional observations from a re-analysis of the deposited data

Results flagged for a closer look

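The summed level of the p24 cargo receptors in somatostatin-only wells was 1615 CPM on ppx replicate 2, far from the other 5 plates, which lay between 775 and 953. That value rests on 19 UMIs from 9 wells. Tmed3 gave most of it, with 935 CPM there against 182 to 418 on the others. It was the 1 value that stood apart among 42 groups of 4 to 6 plates examined, and chance alone marks about 1 in 20 such groups. The cause was not tested.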

How the results depend on the processing

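The counts of members past the threshold stayed within 1.5 times for insulin-only against somatostatin-only wells (16 to 24) and against glucagon-only wells (21 to 26), and at 0 for the operation in somatostatin-only and glucagon-only wells, for Sst load and for the differences of effects, under every alternative run. Of the called members, the 50 single results gave 708 values under alternatives, of which 646 stayed past the threshold, 62 did not and 0 changed direction. Most of the 50 are the 19 and 23 calls against somatostatin-only and glucagon-only wells. These pooled numbers thus do not describe the few calls for joined wells, insulin load or the operation. For joined against insulin-only wells the count of 1 became 2 with halved hormone thresholds and 2 without the tomato-positive plates, and lay between 0 and 1 with 1 plate left out (0 without ppx replicate 3). For insulin load the count of 4 became 1 with DESeq2, 1 with no low count filter and 2 with a split at the median in place of terciles, and lay between 0 and 5 with 1 plate left out. For glucagon load the count of 0 became 1 with halved thresholds. For ppx against sham in insulin-only wells the count of 3 became 1 with DESeq2, 1 with hormone rows kept, 0 with doubled thresholds and 8 without the tomato-positive plates, and lay between 0 and 6 with 1 plate left out. The cause was not tested, beyond the smaller number of plates in the last of these.

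The replicate numbers are shared by both operations, so the number was also used as a replicate block: 3 members were called for ppx against sham in insulin-only wells, and 0 in somatostatin-only and glucagon-only wells. Over 4903 genes the deviations of same-numbered plates from their operation's mean correlated at 0.019, 0.028 and 0.042 in insulin-only wells, so the numbers were not taken to pair the plates. In these wells each plate correlated best with its own number, which is a hint from the data and not the design. The other groups did not repeat this for every plate. In somatostatin-only wells sham replicate 1 correlated at 0.017 with ppx replicate 1 and 0.052 with ppx replicate 2. In glucagon-only wells sham replicate 3 correlated at -0.020 with ppx replicate 3 and 0.017 with ppx replicate 2. The plates numbered 1 are also the tomato-positive ones. Depth limits the comparisons in somatostatin-only and glucagon-only wells, where 7 and 11 of the 33 members had too few UMIs to be tested between operations. The ppx plates held 224, 9 and 11 somatostatin-only and 6, 17 and 8 glucagon-only wells, replicates 1 to 3 in turn.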
